A study of Homo sapiens with 12 samples.

Results

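The chaperonins are barrel-shaped folding machines that enclose an unfolded protein in a central chamber. The cytosolic chaperonin, called TRiC or CCT, is built from different but related subunits arranged in stacked rings, and is known for folding actin and tubulin. The mitochondrial chaperonin is built from HSP60, encoded by HSPD1, which forms the chamber in the matrix, and HSP10, encoded by HSPE1, which forms its lid. The 10 genes described here are the 8 TRiC subunits (TCP1, CCT2, CCT3, CCT4, CCT5, CCT6A, CCT7 and CCT8) with HSPD1 and HSPE1. They were taken by gene name from a table of 58676 genes, and all 10 were found.

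RNA was sequenced from A549, an established human lung carcinoma line, in 12 libraries. There were 6 groups of 2 libraries: a control line and 2 lines labelled as knockouts of NFE2L1 (KO1 and KO2), each given DMSO as vehicle or bortezomib, an inhibitor of the proteasome, for 4 h at 200 nM. NFE2L1 encodes a transcription factor known for inducing proteasome genes when the proteasome is inhibited. The labels do not say how the knockouts were made or whether the lines are clones, and with 1 control line a knockout effect and a difference between lines cannot be told apart. Nothing in the labels says that the 2 libraries of a group came from separate cultures, so p-values measure the spread between these libraries, which may be technical.

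Each library held 13211608 to 23819258 reads assigned to genes. NFE2L1 was at 72.7 to 189 FPKM (read counts scaled to gene length and to the reads assigned to genes) in the 4 control libraries and at 8.45 to 50.8 FPKM in the 8 knockout libraries, with no overlap. The keratins KRT8, KRT18 and KRT7, markers of epithelium, were at 112 to 755 FPKM, CDH1 and EPCAM at 1.25 to 10.6 FPKM, and markers of leukocytes, endothelium, fibroblasts and alveolar type II cells at no more than 0.2 FPKM. In bulk RNA, fewer cells and less RNA per cell cannot be told apart.

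The 6 libraries whose title ends in R2 stood apart from the other 6. Mitochondrially encoded genes took 12.31% to 19.29% of their reads, against 5.44% to 6.80% elsewhere. All 8 TRiC subunits and HSPD1 were lower in the R2 library than in its group partner in 6 of 6 groups, with median R2-to-partner ratios of 0.400 for CCT7 to 0.497 for TCP1 among the TRiC subunits and 0.505 for HSPD1. HSPE1 had a median ratio of 1.07 and was lower in R2 in 3 of 6 groups. Over all 12194 genes tested, the median difference of log2(FPKM + 1) between R2 and its partner was −0.21, a smaller shift than that of TRiC and HSPD1. Libraries were therefore also compared within suffix: R2 with R2, R1 with R1, and the unnumbered libraries of the control line with each other. This gave 6 bortezomib-to-vehicle pairs.

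In the deposited table, which uses GRCh38 positions, HSPD1 (ENSG00000144381, chr2:197486581-197516737, minus strand) and HSPE1 (ENSG00000115541, chr2:197499994-197503457, plus strand) are nested, with HSPE1 inside the span of HSPD1. In RefSeq (GRCh38.p14) the genes start head to head. There the HSPE1 start is at 197500379, and the 2 HSPD1 starts are at 197499840 and 197500274, the farther one 105 bases from it. TCP1 is at chr6:159778498-159789749, CCT2 at chr12:69585334-69601570, CCT3 at chr1:156308968-156367873 and CCT4 at chr2:61868089-61888804. CCT5 is at chr5:10249921-10266412, CCT6A at chr7:56051630-56063989, CCT7 at chr2:73233420-73253021 and CCT8 at chr21:29055805-29073797.

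The start regions of these genes were searched for the binding element of heat shock factor, because bortezomib is known to evoke a heat shock response, and for the antioxidant response element core, to which NFE2L1 and its relatives bind. RefSeq windows of 300 bases (250 before and 50 after a start) were at hand for 9 of the 10 genes, 12 windows in all, with none for CCT6A. A heat shock element with 2 units, TTCNNGAA or GAANNTTC on either strand, was in 4 of the 12 windows, those of HSPD1, TCP1, CCT2 and CCT4, against 13.49% of 35116 windows of all genes. The stretches below hold these matches in capitals. Whether a match goes with the expression changes was not tested.
HSPD1, minus strand, chr2:197500061-197500090: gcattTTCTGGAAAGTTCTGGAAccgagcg
TCP1, minus strand, chr6:159789815-159789844: tcgtttgaggcGAAGGTTCaacctcttccc
CCT2, plus strand, chr12:69585789-69585818: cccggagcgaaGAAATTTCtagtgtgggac
CCT4, minus strand, chr2:61888607-61888636: cccgacgccggcgccgctTTCTGGAAggtt

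The HSPD1 match runs over 18 bases, chr2:197500068-197500085, and holds TTCNNGAA at 2 places with GAANNTTC across them. It thereby contains the form with 3 units at 2 overlapping places, a form that 0.49% of all windows hold. It begins at −245 from one of the HSPD1 starts, inside annotated exons of HSPD1 and HSPE1, and ends 294 bases from the HSPE1 start, which puts it outside the HSPE1 window. The TCP1 match lies at −231 from the TCP1 start, in an exon of MRPL18 on the other strand, the CCT2 match at −89 from one of its RefSeq starts, in a CCT2 exon, and the CCT4 match 39 bases after a start, in a CCT4 exon. The windows of CCT3, CCT5, CCT7, CCT8 and HSPE1 held no such letters. The antioxidant response element core, TGACNNNGC, was in the windows of CCT4 alone among the 9 genes, against 13.35% of all windows. It is shown on the gene's strand, where it reads in reverse, in an exon of COMMD1 on the other strand.
CCT4, minus strand, chr2:61888805-61888834: tttaaaatcgcGCGTTGTCAttgctgcctc
The CCAAT box, CCAAT, was in windows of TCP1, CCT2, CCT3 and CCT8, against 34.61% of all windows. These are letter matches and not measured binding.

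HSPD1 was the most abundant of the 10 genes per kilobase in every library. In vehicle it was at 245 FPKM in the unnumbered and 156 FPKM in the R2 library of the control line, at 200.2 (R1) and 85.8 (R2) in KO1 and at 223 (R1) and 111 (R2) in KO2. In bortezomib it was at 587 (unnumbered) and 299 (R2) FPKM in the control line, at 555 (R1) and 279 (R2) in KO1 and at 614 (R1) and 322 (R2) in KO2. Both bortezomib libraries of each line were above both of its vehicle libraries.

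HSPE1 was the lowest of the 10 in every library, although HSP60 and HSP10 work together. In vehicle it was at 11.1 (unnumbered) and 5.82 (R2) FPKM in the control line, 5.65 (R1) and 4.93 (R2) in KO1, and 5.28 (R1) and 3.89 (R2) in KO2. In bortezomib it was at 12.2 (unnumbered) and 18.2 (R2) FPKM in the control line, 12.1 (R1) and 15.4 (R2) in KO1, and 11.4 (R1) and 20.2 (R2) in KO2. The bortezomib groups lay above the vehicle groups in each line, and within bortezomib the R2 library was the higher one, whereas it was the lower one for the other 9 genes.

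The HSPE1 level per kilobase is uncertain. The deposited length of 1977 bases covers all exons of the gene, of which 281 bases also lie in HSPD1 exons on the other strand and 192 in exons of the readthrough gene HSPE1-MOB4, which is listed at 0 in all 12 libraries. Rows of 26 HSPE1 pseudogenes held 82 reads over all libraries against 4674 for HSPE1 itself. How reads that fit several genes or places were counted, and whether strand was used, is not given in the sources used here. The part of these overlaps in the low HSPE1 value, or in the changes of HSPE1 between groups, was not tested. HSPE1 had 148 to 882 reads in a library. Among the TRiC genes, the 4 CCT6A pseudogene rows held reads amounting to 3.25% of those of CCT6A, and the other TRiC pseudogene rows at most 0.124% of their gene.

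The TRiC subunits, which enter the complex in equal numbers, did not have equal RNA levels. Their medians over the 12 libraries ran from 56.4 FPKM for TCP1, 62.4 for CCT5 and 65.1 for CCT8, through 90.4 for CCT2, to 106 for CCT4, 109 for CCT6A, 115 for CCT7 and 123 for CCT3. The first 3 of these were below the last 4 in all 12 libraries, while CCT3, CCT4, CCT6A and CCT7 changed places between libraries, so that their order is not set by these data. The highest subunit was 2.39 to 3.04 times the lowest in the 6 vehicle libraries and 1.99 to 2.36 times in the 6 bortezomib libraries, without overlap. TCP1 was the lowest subunit in all 6 vehicle libraries and CCT5 in all 6 bortezomib libraries.

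**Figure D1:**
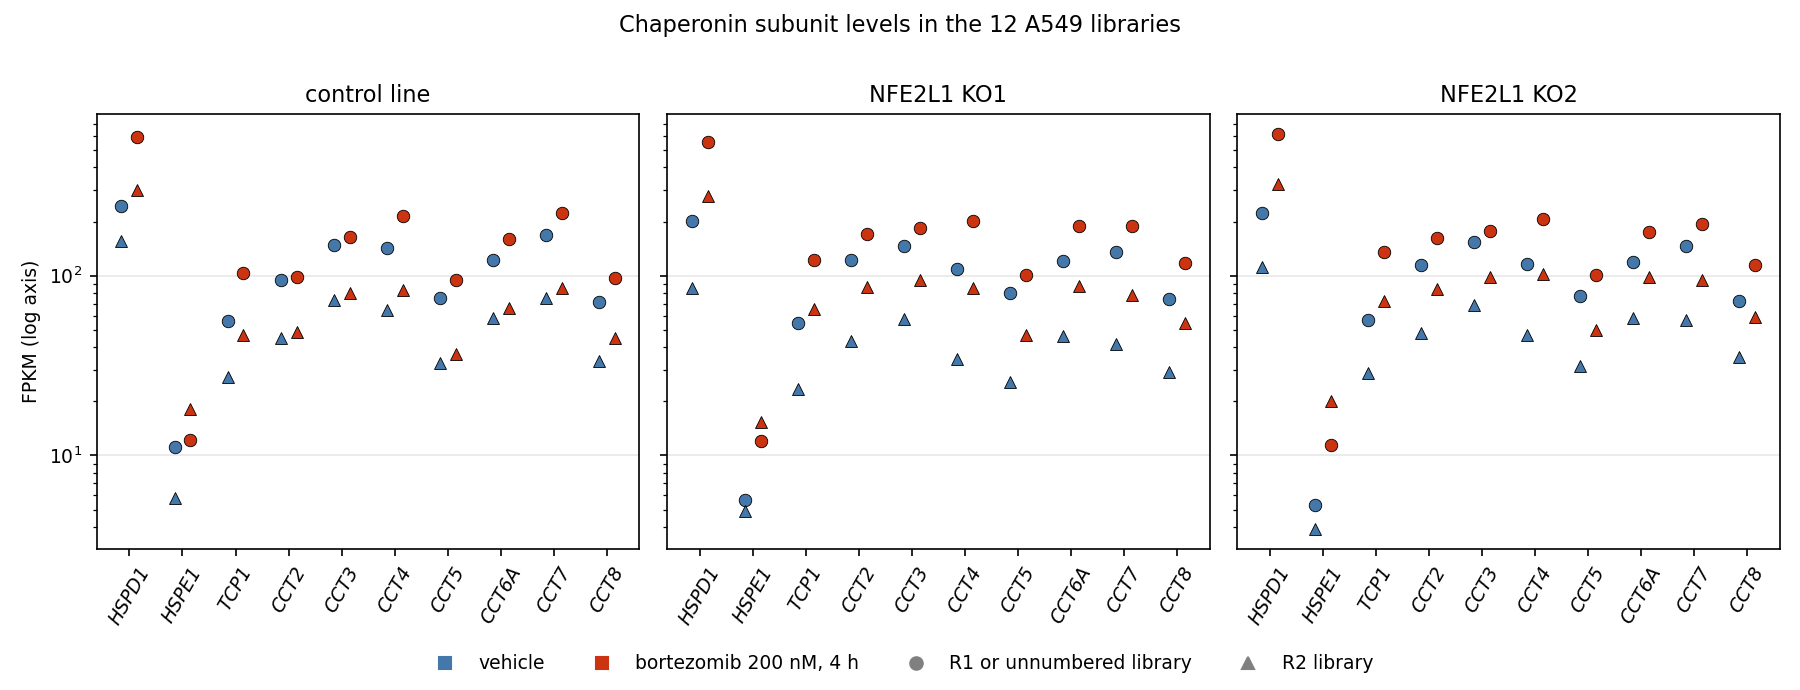
FPKM of the 10 genes on a log axis in the control line, KO1 and KO2, 1 symbol per library, with vehicle in blue, bortezomib in red, R1 or unnumbered libraries as circles and R2 libraries as triangles. HSPD1 is the highest gene and HSPE1 the lowest in all 12 libraries, and within each line and treatment the triangle lies below the circle for HSPD1 and the TRiC subunits.

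RNA of the chaperonins of both compartments was higher with bortezomib. Each of the 10 genes was higher with bortezomib in 6 of 6 suffix pairs, where 24.8% of the 12194 tested genes were higher and 23.8% lower in all 6. The ratio was highest for HSPD1, with a median bortezomib-to-vehicle ratio of 2.76 (range 1.91 to 3.25 over the pairs), and HSPE1, with 2.63 (1.10 to 5.20). TCP1 followed with 2.30 (1.72 to 2.78) and CCT4 with 1.81 (1.30 to 2.48). The other 6 subunits had medians from 1.21 for CCT3 (1.10 to 1.66) to 1.58 for CCT8 (1.33 to 1.87), with CCT5 at 1.28, CCT7 at 1.36, CCT2 at 1.40 and CCT6A at 1.52.

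**Figure D2:**
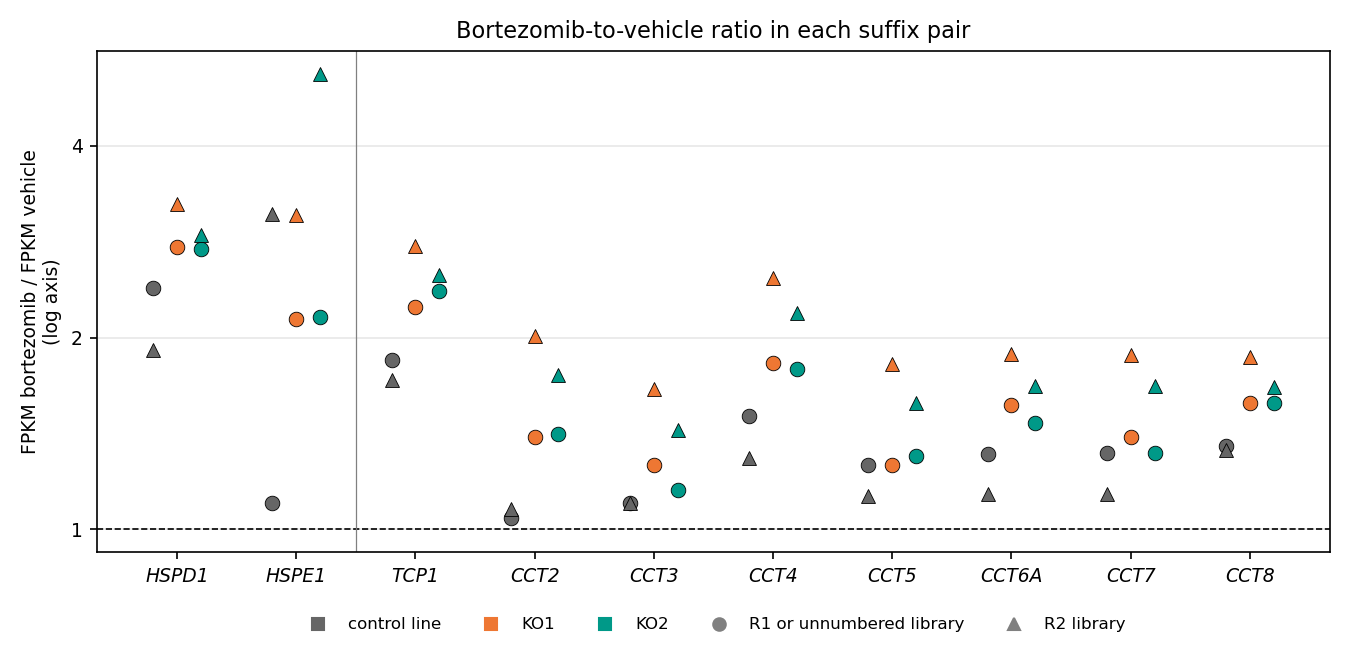
FPKM with bortezomib divided by FPKM with vehicle, on a log axis, in each of the 6 suffix pairs, with the control line in gray, KO1 in orange, KO2 in green, and R2 pairs as triangles. All 60 ratios are above 1, HSPD1 lies between 1.91 and 3.25, and HSPE1 spreads from 1.10 to 5.20.

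The test without a replicate term passed few of these differences. In limma on log2(FPKM + 1), with 1 mean per group and Benjamini-Hochberg adjustment over 12194 genes, the rise averaged over the 3 lines was 1.39 for HSPD1 (SE 0.39, adjusted p = 0.0476) and 1.19 for HSPE1 (SE 0.23, adjusted p = 0.0109), and the 8 TRiC subunits did not pass (0.34 to 1.12, TCP1 adjusted p = 0.0901). So 2 of 10 were called higher, against 4.85% of all genes. The HSPD1 call was lost in 11 of the 12 fits that left out 1 library, with adjusted p from 0.0586 to 0.134, and was kept (0.0416) without the R1 vehicle library of KO1. In single lines this test called none of the 10, against 0.23% of genes called higher for the control line, 0.156% for KO1 and 0.172% for KO2. An unadjusted p under 0.05 was reached by 0 of the 10 in the control line, 2 in KO1 (HSPD1 and HSPE1) and 1 in KO2 (HSPE1). Among the 12194 genes, 1498, 1153 and 1169 reached that unadjusted level, listed in the same order.

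With the title suffix as a replicate block, limma called all 10 genes higher over the mean of the 3 lines, against 27% of all genes. HSPD1 rose by 1.39 (SE 0.088, adjusted p = 4.65e-06), TCP1 by 1.12 (SE 0.083) and HSPE1 by 1.19 (SE 0.19, adjusted p = 0.000734). CCT4 rose by 0.84, CCT8 by 0.62, CCT6A by 0.57, CCT7 by 0.51, CCT2 by 0.49, CCT5 by 0.45 and CCT3 by 0.34, the last with the weakest support (adjusted p = 0.0119). The TRiC median was 0.54, beside a median of −0.01 over all genes. The CCT3 call depended on single libraries. It was lost in blocked fits without the R2 bortezomib library of KO1 or the R2 vehicle library of KO2. In fits without the block that left out 1 library at a time, the CCT3 estimate was 0.12 to 0.56.

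The rises were present in each set of libraries taken alone. In the R1 and unnumbered libraries, with the line as a block, 9 of 10 genes were called higher by limma (background 19.9%), HSPD1 by 1.39 (adjusted p = 0.000577), TCP1 by 1.08 and HSPE1 by 0.69, while CCT3 had 0.22 (adjusted p = 0.0641). In the R2 libraries all 10 were called higher (background 20.8%), HSPD1 by 1.38 (adjusted p = 0.00373), TCP1 by 1.16 and HSPE1 by 1.69. HSPD1 thus had the same estimate in both sets, and HSPE1 a higher one in R2. That difference between the sets was not tested.

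Line by line, the blocked fit called 2 of 10 genes higher in the control line (background 16.1%), all 10 in KO1 (background 13.9%) and 8 in KO2 (background 12.7%). In the control line these were HSPD1, up 1.09 (95% confidence interval 0.75 to 1.44, adjusted p = 0.00111), and TCP1, up 0.81 (0.49 to 1.14, adjusted p = 0.0033). CCT8 (0.42, adjusted p = 0.0538), CCT4 (0.48, adjusted p = 0.062) and HSPE1 (0.81, adjusted p = 0.0892) did not pass there, and CCT2 (0.08) and CCT3 (0.14) were close to 0. In KO1 HSPD1 rose by 1.58, TCP1 by 1.29, HSPE1 by 1.22 and CCT4 by 1.08. In KO2 HSPE1 rose by 1.55, HSPD1 by 1.49, TCP1 by 1.26 and CCT4 by 0.97, and CCT3 (0.36, adjusted p = 0.129) and CCT5 (0.51, adjusted p = 0.0539) did not pass. These counts depended on single libraries. In the control line 4 genes (with CCT4 and CCT8) were called without either vehicle library of KO1, where 17.5% or 17.6% of all genes were called higher, and 3 (with HSPE1) without either unnumbered library, where 10.3% or 10.4% were. In KO1 3 or 4 were called without its R2 vehicle library or either of its bortezomib libraries, and the share of all genes called higher was then 4.83% to 6.34%. In KO2 2 or 3 were called without either vehicle library or its R2 bortezomib library, with 3.83% to 5.34% of all genes called higher. So the counts over all genes were lower in these fits too. HSPD1 and TCP1 were among the called genes each time.

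Both libraries with bortezomib were above both with vehicle for HSPD1 and HSPE1 in the control line, where 16.9% of genes showed this. The same held for HSPD1, HSPE1 and TCP1 in KO1 (12.6%) as well as KO2 (15.8%). No other TRiC subunit was free of overlap in any line. TCP1 went from 54.8 (R1) and 23.4 (R2) FPKM in vehicle to 123 and 65.2 in bortezomib in KO1, and from 56.9 and 28.9 to 135 and 72.4 in KO2. In the control line it went from 55.8 (unnumbered) and 27.1 (R2) to 103 and 46.6, where the R2 library with bortezomib was below the unnumbered one with vehicle.

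HSPD1 rose more than each cytosolic subunit in every pair, but TCP1 came close. HSPD1 had a higher bortezomib-to-vehicle ratio than each of the 8 TRiC subunits in 6 of 6 pairs, and its log2 difference exceeded the TRiC median by 0.75 to 0.93. The margin over TCP1, the highest subunit in each pair, was smaller. TCP1 had 0.76 against 0.93 for HSPD1 in the R2 control pair, and 0.87 against 1.26 in the unnumbered one. For the mean of the lines, the blocked confidence intervals of TCP1 (0.94 to 1.31) and HSPD1 (1.19 to 1.59) overlapped. The difference between HSPD1 and TCP1 was not tested. Within libraries, HSPD1 was 1.74 to 3.02 times the median TRiC subunit in the 6 vehicle libraries and 3.12 to 5.20 times in the 6 bortezomib libraries, without overlap. This ratio is free of the scaling of each library. For HSPE1 the excess over the TRiC median ran from −0.27 in the unnumbered control pair to 1.38 in the R2 pair of KO2. It was positive in 5 of 6 pairs, so the lid gene was not above TRiC in each pair. HSPE1 was also the more variable gene. The pooled within-group SD of its log2(FPKM + 1) minus the TRiC median was 0.94, against 0.19 for HSPD1. HSPD1 was 16.0 to 54.0 times HSPE1, and in each treatment of each line except vehicle in the control line this ratio was lower in the R2 library.

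The makeup of the TRiC RNA shifted with bortezomib. TCP1 made up 6.35% to 7.79% of the summed FPKM of the 8 subunits in vehicle and 8.91% to 11.0% in bortezomib, and CCT3 16.9% to 19.0% in vehicle and 14.0% to 16.4% in bortezomib, both without overlap over 6 libraries against 6. CCT4 had a median share of 13.3% in vehicle and 16.1% in bortezomib, with overlap, and the shares of CCT2, CCT5, CCT6A, CCT7 and CCT8 overlapped too. A share can move because another subunit moves, and these values are given without a test.

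The makeup also differed between the lines. CCT2 made up 8.52% to 11.0% of the summed TRiC FPKM in the 4 control libraries and 12.8% to 14.6% in the 8 knockout libraries. CCT7 made up 17.3% to 19.3% in the control line and 13.1% to 17.2% in the knockout lines. Neither overlapped, over both treatments and both sets of libraries, though the CCT7 ranges lay close, at 17.258% against 17.154%. The shares of TCP1, CCT3, CCT4, CCT5, CCT6A and CCT8 overlapped between the control and knockout libraries. Here too a share can move because another subunit moves, and the values are given without a test.

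**Figure D3:**
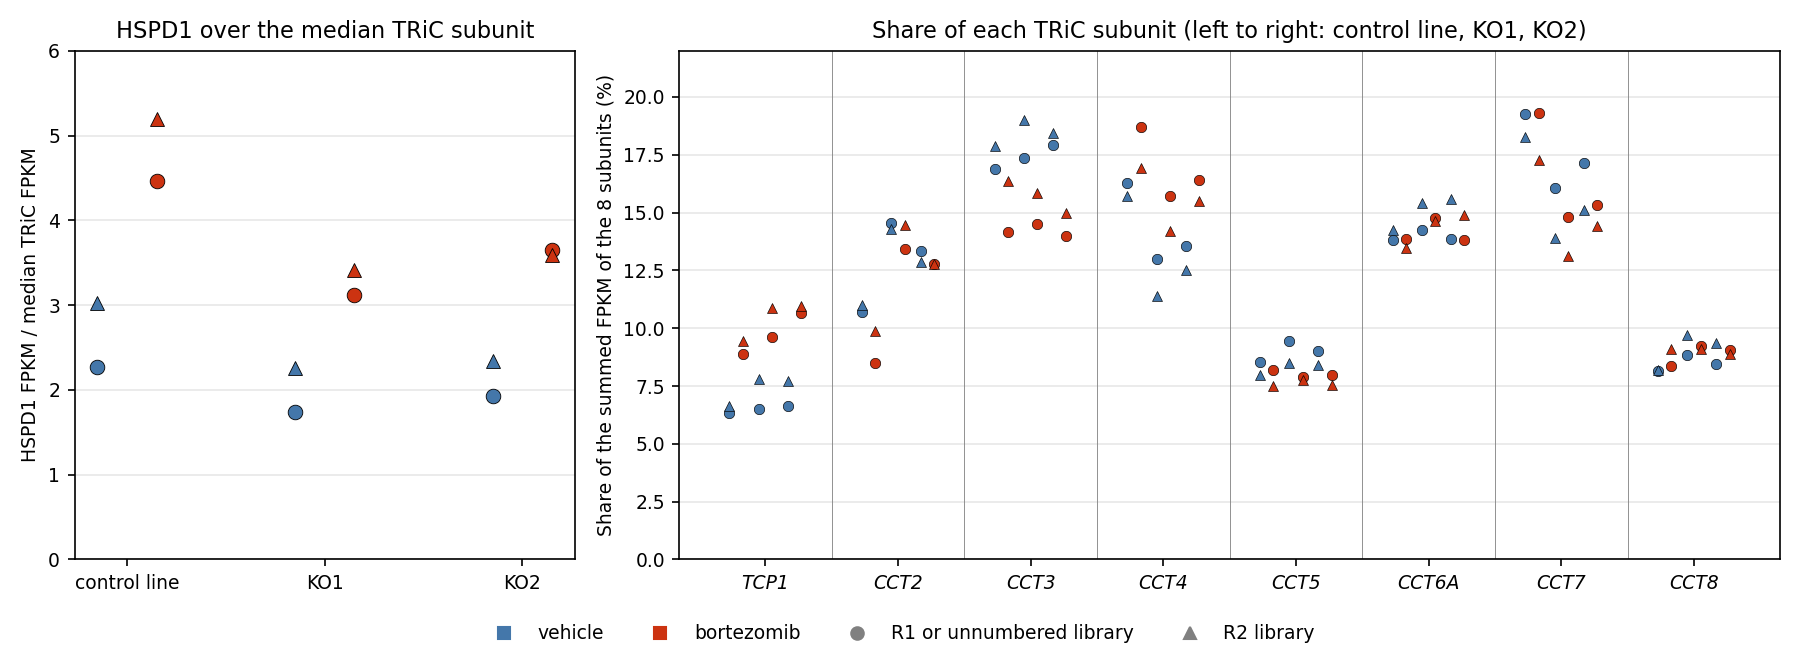
Left, HSPD1 FPKM divided by the median FPKM of the 8 TRiC subunits in each library. Right, the share of each subunit in the summed TRiC FPKM in percent, with the control line, KO1 and KO2 from left to right within each gene. Vehicle is blue, bortezomib red and R2 libraries are triangles. The HSPD1 ratio is 1.74 to 3.02 in vehicle and 3.12 to 5.20 in bortezomib, and the TCP1 share rises above 8.9% in all 6 bortezomib libraries.

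Between the lines in vehicle, differences were smaller and none of the 10 genes passed limma with or without the block in KO1, KO2 or their mean. Without the block, 0.213% of all genes were called in KO1, 0.23% in KO2 and 0.344% in the mean of both, and no chaperonin gene reached an unadjusted p under 0.05. With the block 5.95%, 4.91% and 6.18% were called. An unadjusted p under 0.05 was then reached by CCT4, CCT7 and HSPD1 in KO1 and in the mean, and by HSPD1 in KO2. Of all 12194 genes, 2646 in KO1, 2328 in KO2 and 2644 in the mean reached that unadjusted level with the block. Without the block 538, 433 and 561 did. The TRiC median of log2 differences from control was −0.15 in KO1 and −0.01 in KO2, beside 0.02 and 0.06 over all genes.

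HSPD1 and CCT4 had the lowest blocked estimates in KO1. HSPD1 in vehicle was 0.816 (R1 against unnumbered) and 0.550 (R2 against R2) times control in KO1. In KO2 it was 0.909 and 0.712 times, so below 1 in 4 of 4 comparisons. The same held for CCT4 (0.764 and 0.532 in KO1, 0.812 and 0.729 in KO2), CCT7 (0.799 and 0.559, 0.868 and 0.756) and HSPE1 (0.510 and 0.848, 0.477 and 0.668). The knockout lines share their control libraries here, and the share of all genes with this pattern was not computed. The blocked estimates of HSPD1 were −0.69 in KO1 (95% confidence interval −1.09 to −0.28, adjusted p = 0.0575) and −0.42 in KO2 (−0.83 to −0.02, adjusted p = 0.24). In KO1, voom in limma on reads recovered from the FPKM values, with the block, called HSPD1 (−0.69, adjusted p = 0.0224) and CCT4 (−0.67, adjusted p = 0.0384), where 9.84% of genes were called. CCT4 had a blocked estimate of −0.66 in KO1 (adjusted p = 0.0994) and −0.39 in KO2 (adjusted p = 0.334). In KO1 it was called with the unnumbered libraries given the level of R1 (−0.64, adjusted p = 0.0472, with 7.96% of genes called). Without the R1 vehicle library of KO1 the blocked CCT4 estimate was −0.84. That fit leaves the R2 library alone in its group, where the CCT4 ratio to control was the lower one (0.532, against 0.764 for R1). CCT7 had −0.60 and −0.33 with the block, and HSPE1 −0.39 and −0.57, none of which passed.

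Under bortezomib the differences between lines had another pattern. The TRiC median of the mean of both knockout lines minus control was 0.26 (0.05 over all genes), with 7 of 8 subunits above 0, HSPD1 at −0.0018 and HSPE1 at −0.05. None passed without the block, where 0.164% of all genes were called. No chaperonin gene had an unadjusted p under 0.05 there, against 697 of the 12194 genes. With the block, CCT2 was higher by 0.71 (95% confidence interval 0.31 to 1.11, adjusted p = 0.0438), where 7.66% of genes were called. CCT2 stood at 98.4 (unnumbered) and 48.5 (R2) FPKM in the control line with bortezomib, at 171 (R1) and 86.5 (R2) in KO1 and at 162 and 84.4 in KO2. This call was lost in the blocked fits that left out 1 of 9 libraries and kept without either vehicle library of KO1 or the R1 bortezomib library of KO2. TCP1 had 0.48 (adjusted p = 0.0942) and was called with the unnumbered libraries coded as R1 (0.44, adjusted p = 0.0411). That coding called more genes, 811 of the 12194 higher and 739 lower.

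Epithelial markers also differed between the lines. In vehicle, limma with the block called 4 of 5 higher in the mean of both knockout lines than in control, KRT8 (1.36), KRT18 (1.16), CDH1 (0.83) and EPCAM (0.76), and KRT7 had 0.13. In bortezomib it called KRT8 (1.31) and KRT18 (1.55). Of all 12194 genes this fit called 6.18% in either direction in vehicle (417 genes higher) and 7.66% in bortezomib (476 genes higher). KRT18 was at 112 to 194 FPKM in the 4 control libraries and at 212 to 586 FPKM in the 8 knockout libraries. The part of this in the line differences of HSPD1, CCT4, CCT2 and CCT7 was not tested. Without the block limma called none of the 5 in either treatment, against 0.344% of all genes in vehicle and 0.164% in bortezomib. In each treatment 1 of the 5 had an unadjusted p under 0.05, against 561 and 697 of the 12194 genes.

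**Figure D4:**
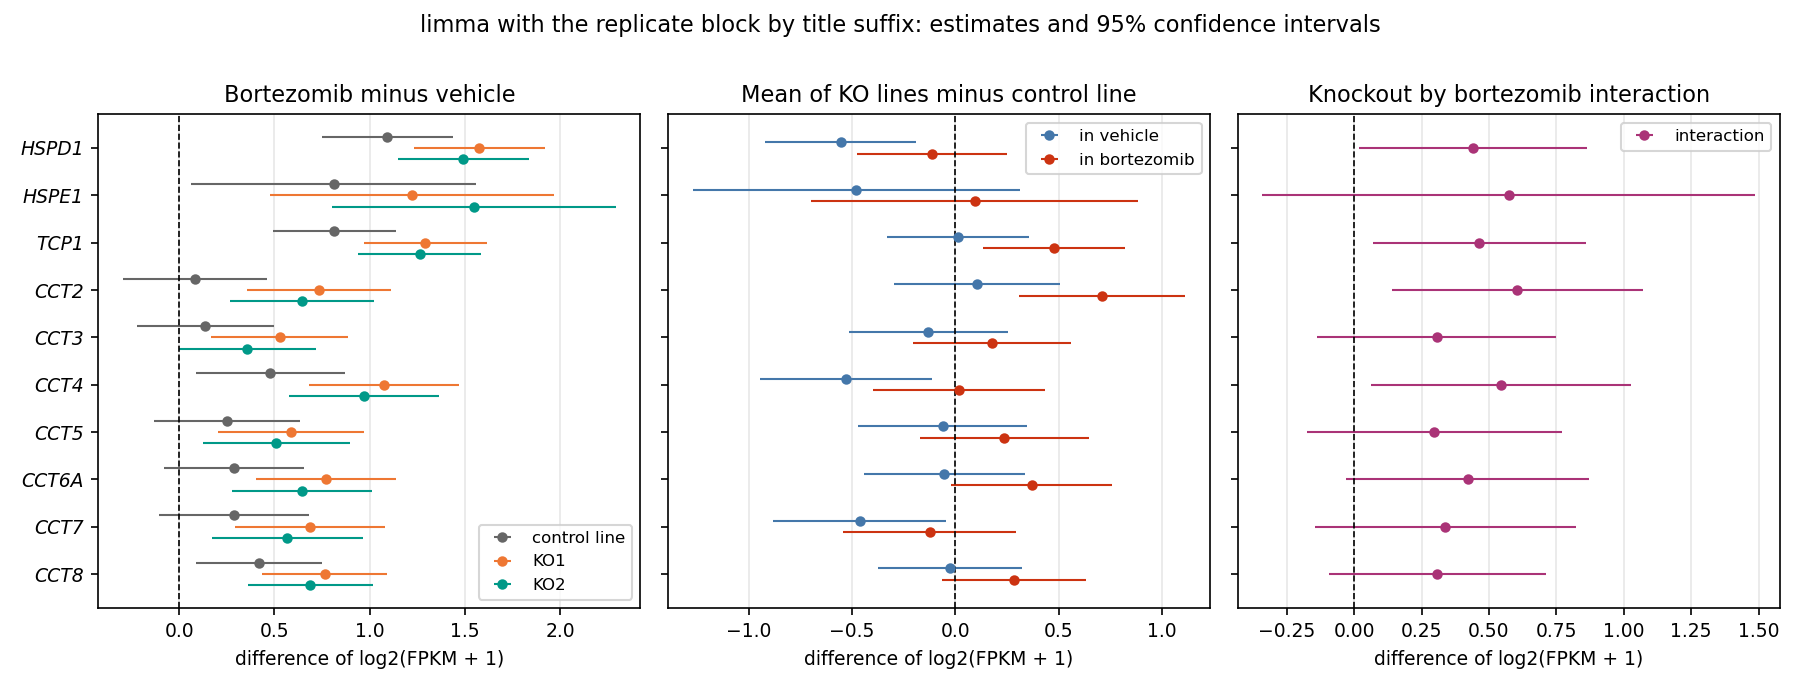
Estimates from limma with the replicate block, as differences of log2(FPKM + 1), with 95% confidence intervals. Left, bortezomib minus vehicle in each line. Middle, the mean of both knockout lines minus the control line in vehicle and in bortezomib. Right, the interaction. The control line lies below KO1 for all 10 genes on the left, CCT2 in bortezomib is at 0.71 in the middle, and the interaction is above 0 for all 10.

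The bortezomib response was estimated higher in the knockout lines than in the control line for all 10 genes, but the interaction passed for none. It was 0.30 to 0.61 for the TRiC subunits (median 0.38, beside 0.01 over all genes), 0.44 for HSPD1 and 0.57 for HSPE1. In limma without the block no gene of the 12194 was called (0%), 115 had an unadjusted p under 0.05, and no chaperonin gene was among these. With the block again none was called (0%), 1305 had an unadjusted p under 0.05, and among these were CCT2 (0.61, 95% confidence interval 0.14 to 1.07, adjusted p = 0.324), TCP1 (0.46, 0.07 to 0.86, adjusted p = 0.38), CCT4 (0.54, 0.06 to 1.03, adjusted p = 0.4) and HSPD1 (0.44, 0.02 to 0.86, adjusted p = 0.445). Blocked voom called 1.01% of genes and none of these 10. Since the 10 genes share their libraries, a common direction is not separate evidence from each.

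The size of the interaction differed by set of libraries. Between the R1 and unnumbered libraries the extra response of the TRiC subunits was 0.00 to 0.42 in KO1 (median 0.23) and 0.00 to 0.43 in KO2 (median 0.19). Between the R2 libraries it was 0.47 to 0.92 in KO1 (median 0.70) and 0.32 to 0.74 in KO2 (median 0.55). All 8 subunits were above 0 in each of the 4 comparisons, which share their control libraries within a set. HSPD1 had 0.21 in KO1 and 0.20 in KO2 in the first set, and 0.76 and 0.59 in R2. HSPE1 had 0.85 in both lines in the first set, and −0.03 in KO1 and 0.62 in KO2 in R2.

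Other folding genes were measured in the same libraries. Of 7 heat shock genes of the cytosol, limma with the block called all 7 higher over the mean of the 3 lines (27% of all genes), from HSPA8 (0.73) and HSP90AB1 (1.02) through HSP90AA1 (1.91), HSPH1 (2.54) and DNAJB1 (2.80) to the inducible HSP70 genes HSPA1A (4.54) and HSPA1B (4.59). HSPA1A and HSPA1B are near-identical copies, so reads may be split between them. HSPD1 (1.39), HSPE1 (1.19) and TCP1 (1.12) lay between HSP90AB1 and HSP90AA1. CCT4 (0.84) lay between HSPA8 and HSP90AB1, and the remaining TRiC subunits lay below HSPA8. Without the block 5 of the 7 were called (4.85% of all genes), all but HSPA8 and HSP90AB1. Of the 5 epithelial markers, the blocked fit called EPCAM (0.93) and KRT7 (0.54) higher and CDH1 (−0.44) lower.

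Of 14 folding and quality control genes of mitochondria, 5 were called higher with the block and none lower, a share near the 27% of all genes called higher in that fit. These were GRPEL2 (0.89), the protease LONP1 (0.88), the matrix HSP70 HSPA9 (0.81), GRPEL1 (0.45), which like GRPEL2 encodes a nucleotide exchange factor of that HSP70, and the membrane protease YME1L1 (0.28). Without the block GRPEL2 (adjusted p = 0.0382) and LONP1 (adjusted p = 0.0384) were called. The other 9 ran from −0.26 for AFG3L2 to 0.24. The list median was 0.21.

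Prefoldin, the complex that hands unfolded actin and tubulin to TRiC, had 2 of 6 subunits called higher with the block, PFDN4 (0.80) and VBP1 (0.41), which is also near the 27% of all genes. Without the block limma called none of the 6, and 0 had an unadjusted p under 0.05, against 3275 of the 12194 genes. Of the phosducin-like and thioredoxin-like partners of TRiC, 2 of 3 tested, TXNDC9 (0.41) and PDCL (0.31), were called higher with the block, against the same 27%, PDCL3 (−0.22, adjusted p = 0.0604) was not, and PDCL2 was listed at 0 in all libraries. The clients had more falls than rises. Of 12 actin and tubulin genes tested, the blocked fit called 6 lower, TUBB4B (−0.91), TUBB (−0.86), ACTB (−0.72), TUBA1B (−0.54), TUBA4A (−0.36) and TUBG1 (−0.34), and 2 higher, TUBB2B (1.20) and TUBB2A (0.40), with a list median of −0.33, where 27.9% of all genes were called lower. Without the block limma called none of the 12, and 1 (TUBB2B) had an unadjusted p under 0.05, against the same 3275 of all genes. Tubulin genes are alike in sequence, and how shared reads were counted is not given.

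Other chaperonin-like genes were low. CCT6B, a testis-type subunit, was at 0.074 to 0.53 FPKM and CCT8L2 at 0 in all 12 libraries, so neither was tested. MKKS (0.19), BBS10 and BBS12 (0.20) encode chaperonin-like proteins that act in assembling the BBSome of cilia. BBS10 fell by 1.30 on the log2 scale (SE 0.17, adjusted p = 0.00214 without the block, where 6.76% of genes were called lower), from 5.98 to 8.96 FPKM in the 6 vehicle libraries to 1.74 to 3.54 in the 6 bortezomib libraries, without overlap.

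**Figure D5:**
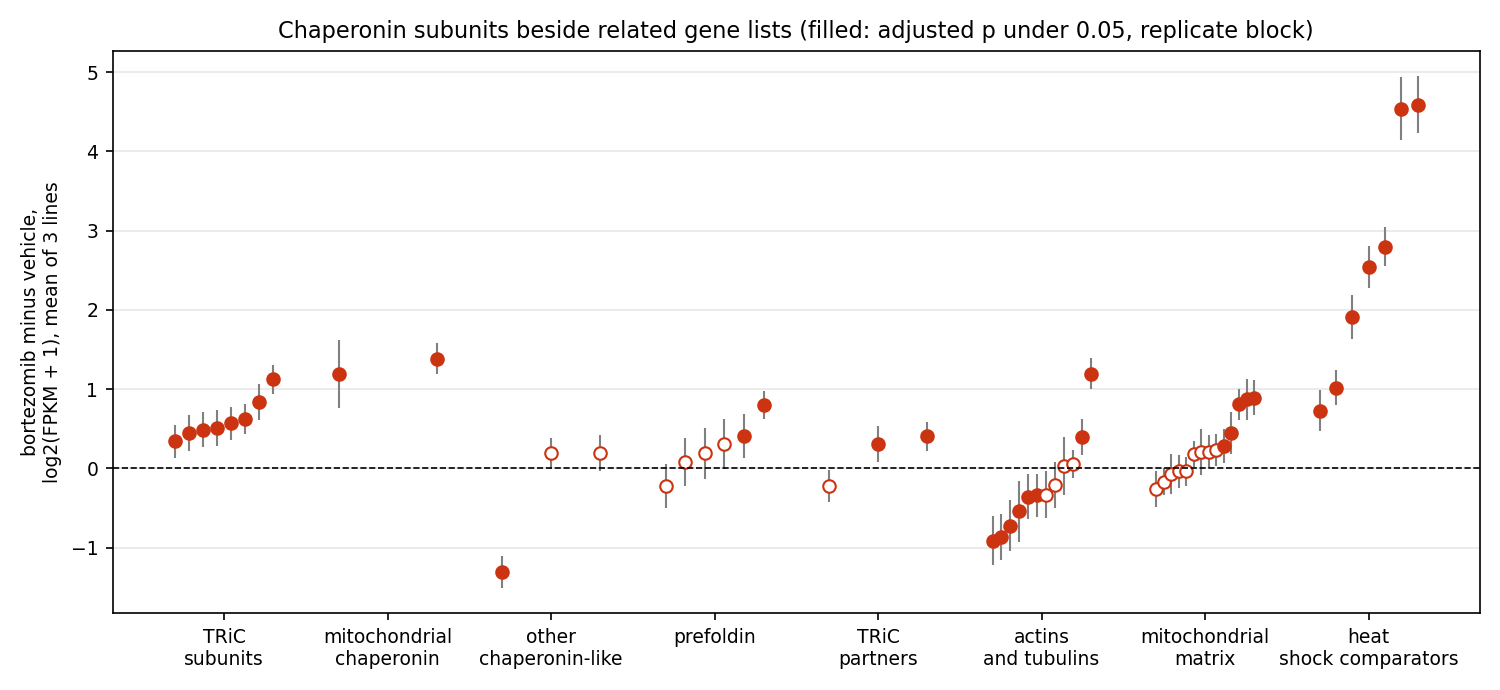
Bortezomib minus vehicle as the mean of the 3 lines, in log2(FPKM + 1), for each tested gene of 8 lists, from limma with the replicate block. Bars are 95% confidence intervals and filled points have an adjusted p under 0.05. The TRiC subunits lie between 0.34 and 1.12, HSPA1A and HSPA1B above 4.5, and 6 actin and tubulin genes are filled below 0.

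The TRiC subunits moved together across the 12 libraries. Pearson's r of log2(FPKM + 1) between subunits had a median of 0.952 (0.852 to 0.997 over 28 pairs), against 0.847 for subunits with HSPD1 and 0.355 for subunits with HSPE1. After centring within the R2 and within the other libraries the medians were 0.904, 0.908 and 0.810. Between subunits r then ran from 0.444 for CCT2 with CCT7 to 0.992 for TCP1 with CCT8, and CCT2 with CCT4 had 0.591. So CCT2 followed CCT7 and CCT4 less closely once the shift between the sets was removed. These values describe libraries that share treatment and set, and carry no test. The genes outside the 10 with the highest r to the TRiC mean were SETD3 (0.997), GTF2E2 (0.995), CAP2 (0.993), ETF1 (0.993) and DDX21 (0.992), and to HSPD1 PLEKHA3 (0.988), ZNF581 (0.988), FGF2 (0.985), LARP6 (0.984) and POLR3C (0.983). After centring within the R2 and within the other libraries, which removes the shift between these sets, they were SETD3 (0.990), ST13 (0.989), GTF2E2 (0.985), NUDC (0.983) and AZIN1 (0.982) for the TRiC mean, and GPN1 (0.992), IARS (0.984), PLEKHA3 (0.984), ZNF581 (0.983) and TATDN1 (0.982) for HSPD1.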

How the data were processed

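RNA of 12 A549 libraries was measured by sequencing, 2 in each of 6 groups taken from the labels. The deposited values are FPKM per gene. The submitters' processing notes name CASAVA, STAR 2.5, HTSeq 0.6.1, DESeq2 and the build hg19, with no role or order. All 58676 gene IDs were nevertheless in GENCODE 29 (GRCh38), 95.2% of them and all 10 described here at the same position, so GRCh38 is the build used for coordinates. FPKM times gene length gave whole reads for 100% of values (within 0.01), with the total of assigned reads as the scale.

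limma 3.58.1 in R 4.3.3 was run on log2(FPKM + 1) with a mean-variance trend, all 12 libraries and 1 mean per group. Testing covered the 12194 genes (20.8%) with mean FPKM 1 or more, and an adjusted p under 0.05 was a call. On this scale changes of low genes are understated. With 2 libraries against 2, an exact permutation test cannot go below p = 0.333, so none was used. The title suffixes pair the libraries: the deviations of same-numbered libraries from their group means correlated at 0.70 to 0.89 over 15 pairs of groups. The blocked fit is therefore given beside the fit without a block. R1 occurs in knockout groups alone and no suffix in control groups alone, so the block ties knockout to control mainly through R2. Fits were tested on simulated data. The genes, the related lists and the tests were chosen with earlier results of these data known. All 10 genes are named, and of each related list the genes called in either fit or with the highest or lowest estimate. Other names (BBS12, MKKS, PDCL3 and the gene rows beside them) complete short lists and were added with their values known. Alternatives were other pseudocounts, filters and scalings, voom, blocks, and leaving out libraries.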

Additional observations from a re-analysis of the deposited data

How the results depend on the processing

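The replicate block decides most calls, because R2 and its partner differ in level within each group. With the block by suffix, the numbers of the 10 genes called for bortezomib were 2 in the control line, 10 in KO1, 8 in KO2 and 10 for the mean of the lines, against 0, 0, 0 and 2 without it. Of all genes, the block called 16.1%, 13.9%, 12.7% and 27% higher, against 0.23%, 0.156%, 0.172% and 4.85% without it. Coding the unnumbered libraries as R1 gave 3, 10, 9 and 10, with 1960, 1725, 1558 and 3293 of the 12194 genes called higher. With mitochondrially encoded genes left out and the block the numbers were 4, 10, 9 and 10, and with voom and the block 5, 10, 9 and 10. For the mean of the lines, 1 was called with no filter, a mean FPKM of at least 5 or FPKM rescaled to a common sum, 9 with the R1 and unnumbered libraries alone and 10 with R2 alone, the last 2 chosen after seeing the data. For knockout against control, KO1 in vehicle had 1 call with the unnumbered libraries on R1 and 2 with blocked voom, the mean of both lines in vehicle 1 with blocked voom, and that mean in bortezomib 1 with the block by suffix, 2 with the unnumbered libraries on R1, 1 without mitochondrially encoded genes and with the block, and 1 with blocked voom. The block changed no other call of the counts. For KO1 in vehicle, the fit with the unnumbered libraries on R1 called 7.96% of all genes and blocked voom 9.84%. For the mean of both lines in bortezomib the block by suffix called 7.66%. Settings with no share of all genes given have no background, and their counts are not read as results about these genes.

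Leaving out 1 library at a time, with and without the block (the blocked fits were chosen after seeing the data), gave 0 to 4 calls for bortezomib in the control line, 0 to 10 in KO1, 0 to 9 in KO2 (7 in the blocked fits without either bortezomib library of KO1) and 1 to 10 for the mean of the lines, 0 to 1 for KO1 in vehicle and 0 to 2 for the mean of the knockout lines in bortezomib. Without the block, leaving out a library sets the lone library of its group against the mean of an R2 library and its partner. Estimates of single genes then turned sign. The lone library is then assumed to vary like the other groups. In the control line with bortezomib the ranges were −0.44 to 0.61 for CCT2, −0.37 to 0.64 for CCT3, −0.20 to 1.16 for CCT4, −0.42 to 0.92 for CCT5, −0.34 to 0.92 for CCT6A, −0.40 to 0.98 for CCT7 and −0.13 to 0.97 for CCT8. In KO1 they were −0.0110 to 1.48 for CCT2, −0.14 to 1.20 for CCT3, −0.22 to 1.39 for CCT5 and −0.15 to 1.52 for CCT7, and in KO2 −0.21 to 0.93 for CCT3, −0.12 to 1.14 for CCT5 and −0.11 to 1.25 for CCT7. HSPD1 against control ranged from −1.18 to 0.032 in KO1 and from −0.81 to 0.19 in KO2 in vehicle, from −0.49 to 0.48 for the mean of both in bortezomib, and from −0.045 to 0.93 in the interaction. HSPE1 for that mean in bortezomib ranged from −0.32 to 0.22, and was 0.094 with the block, 0.11 with the block and without mitochondrially encoded genes and 0.13 with blocked voom, against −0.05. The excess of HSPD1 over the TRiC median in the control line ranged from 0.56 to 1.03. TCP1, HSPD1 and HSPE1 kept the sign of their bortezomib estimates in each line under every alternative run.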
